A study of Mus musculus with 4 samples.

Results

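Adipocytes are fat cells, and the genes described here are 10 that adipocytes are known for, measured in RNA of whole lung from mice with sickle cell disease and from wild-type mice. They are Adipoq, Retn, Lep, Fabp4, Car3, Plin1, Plin4, Cidec, Cidea and Ucp1, taken by name from 30702 genes tested. Each had 1 probe set annotated to it alone, and all 10 were fitted with no filter on low values. The WT group held 2 arrays of lung from mice with the strain label C57/BL6, and the SCD group held 2 arrays of lung from mice with the strain label SCD Tg. All were adult and age-matched, per the labels. The transgenic line behind the SCD label, its alleles, the sex and exact age of the mice and their feeding state are not stated in the labels. Strain label and disease group go together on every array, so strain background and disease cannot be told apart. The comparison asked how the genes differ between SCD and WT lung, and whether genes shared by white and brown fat differ as brown fat genes do. Nothing in the labels says beyond the number of lungs that the arrays are separate animals, so the p-values measure the spread between these samples.

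Fat tissue stores triglyceride in lipid droplets and secretes hormones called adipokines. White fat stores energy in a single large droplet per cell, whereas brown fat burns lipid in its many mitochondria to make heat. Adult mouse lung is not a fat depot, but fat lies along the large airways and the mediastinum, and some lung cells use genes of the same lipid pathways. Fabp4 is also known from capillary endothelium and macrophages, Cidec from lipid-laden macrophages and Car3 from muscle.

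For reference, the bases just before the transcription start are printed for the 3 adipokine genes, of which 2 fell and 1 did not pass, and for the brown fat gene Ucp1. The sequences are RefSeq's, of build GRCm38.p6, and windows of 7 members were matched by symbol. Fabp4 and Car3 had no window, and Cidea was left out of the search. Each window printed is the 250 bases before the start, and capitals mark the motifs searched.
Adipoq, chr16:23146286-23146535, + strand: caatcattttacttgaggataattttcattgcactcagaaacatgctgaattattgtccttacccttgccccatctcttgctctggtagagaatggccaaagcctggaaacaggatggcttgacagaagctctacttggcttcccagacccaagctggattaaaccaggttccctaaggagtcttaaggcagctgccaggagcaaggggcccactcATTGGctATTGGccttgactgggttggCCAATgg
Retn, chr8:3655520-3655769, + strand: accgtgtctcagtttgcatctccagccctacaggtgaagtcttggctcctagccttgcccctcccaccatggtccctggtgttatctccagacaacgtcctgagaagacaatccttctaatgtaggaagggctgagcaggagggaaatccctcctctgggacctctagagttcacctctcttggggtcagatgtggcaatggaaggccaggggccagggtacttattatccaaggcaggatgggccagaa
Lep, chr6:29059971-29060220, + strand: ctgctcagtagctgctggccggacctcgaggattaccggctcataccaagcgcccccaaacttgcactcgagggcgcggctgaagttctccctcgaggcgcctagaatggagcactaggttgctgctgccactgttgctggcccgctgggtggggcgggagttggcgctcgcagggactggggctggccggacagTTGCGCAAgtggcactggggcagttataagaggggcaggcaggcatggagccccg
Ucp1, chr8:83290098-83290347, + strand: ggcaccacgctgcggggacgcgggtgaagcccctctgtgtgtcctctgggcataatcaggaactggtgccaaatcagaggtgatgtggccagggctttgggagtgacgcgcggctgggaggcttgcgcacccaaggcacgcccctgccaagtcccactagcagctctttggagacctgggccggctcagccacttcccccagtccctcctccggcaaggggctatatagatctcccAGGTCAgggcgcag

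Motifs were searched on both strands. The Adipoq window held CCAAT 3 times, 1 of them on the forward strand, and 33.8% of all 32851 such windows held it at least once. In the Lep window the C/EBP palindrome TTGCGCAA lay 55 to 48 bases before the start, a motif in 0.164% of all windows. C/EBP factors are transcription factors of fat cell differentiation. The Ucp1 window held AGGTCA, the hexamer that PPAR and RXR receptors recognise, 14 to 9 bases before the start, as 14% of all windows did. No match to these motifs or to TATAAA, found in 12.4% of all windows, was found in the Retn window. None of the 4 motifs overlaps another in the windows shown.

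The deposited values are log2 expression values, so that a difference of 1 is a doubling. Of the 10 genes, 4 fell in SCD lung, 0 rose and 6 missed an adjusted p of 0.05 in limma over all genes tested. Adipoq, Retn, Fabp4 and Car3 were the 4 that fell, by 1.92-fold to 2.55-fold. Over all 30702 genes, 952 or 3.10% passed this threshold, 195 or 0.635% lower and 757 or 2.47% higher. The median difference of the 10 genes was -0.43, and that of all genes tested was 0.0. The SCD values lay below both WT values without overlap for 6 of the 10 genes, and 22.5% of all genes tested had that pattern. With intensities from whole lung, fewer cells of a type and less RNA per cell cannot be told apart.

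**Figure D1:**
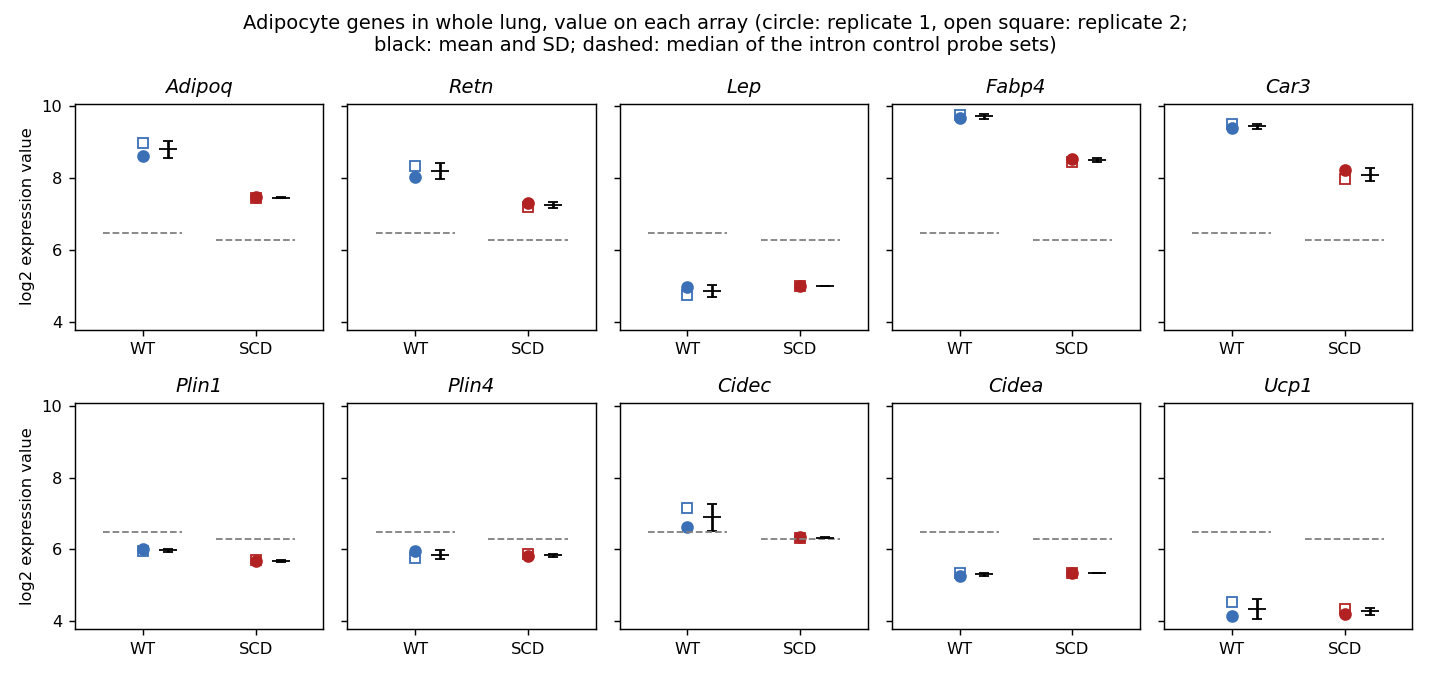
The log2 expression value of each of the 10 genes is plotted for the WT and SCD arrays, with the mean and SD of each group (n = 2) in black and the median of the intron control probe sets as a dashed line. Adipoq, Retn, Fabp4 and Car3 lie above the dashed line on all 4 arrays and lower in SCD, whereas Lep, Plin1, Plin4, Cidea and Ucp1 lie below it on all 4 arrays.

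Among the adipokines, Adipoq and Retn fell and Lep did not pass. Adipoq encodes adiponectin, a hormone that fat cells secrete into the blood and that raises insulin sensitivity. Its log2 values were 8.63 and 8.97 in WT lung against 7.47 and 7.46 in SCD lung. Both SCD arrays were low and nearly equal, and the groups did not overlap. Adipoq thus went from 8.80 ± 0.24 to 7.46 ± 0.01 (mean ± SD, n = 2 per group), a difference of -1.33 ± 0.14 (SE) or 2.52-fold lower, with a limma adjusted p of 0.016. Only 0.147% of all genes tested had a more negative difference.

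Retn encodes resistin, an adipokine that in mice comes mainly from white fat cells and opposes insulin. Its log2 values were 8.04 and 8.35 in WT and 7.31 and 7.19 in SCD. Neither SCD array reached the lower WT array. The difference was -0.94 ± 0.14 (SE), or 1.92-fold lower, with a limma adjusted p of 0.0418. Of the 4 decreases this call lay closest to the threshold, and without the intensity trend in the variance the limma adjusted p was 0.0602.

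Lep encodes leptin, which white fat cells secrete in proportion to their fat stores and which curbs appetite. It read 4.97 and 4.74 in WT and 4.99 and 5.01 in SCD, without overlap, but WT replicate 1 lay within 0.1 of either SCD array. The difference was 0.15 ± 0.13 (limma adjusted p of 0.661; 95% interval from -0.19 to 0.48), and it was -0.05 once the amount by which the exon control probe sets were brighter in SCD had been subtracted. All 4 values were below the median of the intron controls, which was 6.48 and 6.47 in WT and 6.31 and 6.27 in SCD. Intron controls are probe sets against introns and are read here as a level at which a probe set is hard to tell from background.

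Both genes of cytosolic proteins fell. Fabp4, the adipocyte fatty acid binding protein that carries fatty acids through the cell, read 9.67 and 9.77 in WT and 8.54 and 8.45 in SCD. The arrays of each group lay close together and the groups were far apart. Its difference was -1.22 ± 0.10 (SE), or 2.33-fold lower, with a limma adjusted p of 0.0078. Car3, carbonic anhydrase 3, is among the most abundant cytosolic proteins of mouse fat cells and of slow muscle. It read 9.40 and 9.50 in WT against 8.22 and 7.98 in SCD, again without overlap. The difference of Car3 was -1.35 ± 0.12 (SE), the most negative of the 10 genes, or 2.55-fold lower, with a limma adjusted p of 0.0104.

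The genes of lipid droplet proteins did not pass. Plin1, perilipin 1, coats the droplet of fat cells and holds back the lipases until a hormone signal arrives. It read 6.01 and 5.96 in WT and 5.67 and 5.70 in SCD, below the intron control median on all 4 arrays. Its groups did not overlap, but the difference of -0.30 ± 0.11 missed the threshold in limma (adjusted p of 0.259; unadjusted p of 0.037). Cidec, which fuses small droplets into a large one, read 6.63 and 7.16 in WT and 6.35 and 6.32 in SCD. The WT arrays lay 0.53 apart, a wider gap than that of 92.3% of all genes, and the SCD arrays were both just above the intron control median. Its difference was -0.56 ± 0.20 (limma adjusted p of 0.253; 95% interval from -1.06 to -0.06), and it was -0.83 without WT replicate 1 and -0.29 without WT replicate 2. Plin4, a perilipin of nascent droplets, read 5.95 and 5.76 in WT and 5.81 and 5.86 in SCD, with overlapping groups. Its difference was -0.02 ± 0.12 (limma adjusted p of 0.96), with a 95% interval from -0.33 to 0.29.

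The brown fat genes did not pass either. Ucp1, uncoupling protein 1, lets protons leak across the mitochondrial inner membrane and is the defining gene of heat production in brown fat. It read 4.15 and 4.54 in WT and 4.20 and 4.34 in SCD, so that both SCD values lay between the WT values. The difference was -0.08 ± 0.17 (limma adjusted p of 0.88; 95% interval from -0.52 to 0.37). Cidea, a droplet protein of brown and beige fat cells, read 5.27 and 5.33 in WT and 5.33 and 5.35 in SCD, a difference of 0.04 ± 0.11 (limma adjusted p of 0.903; 95% interval from -0.24 to 0.32). Its sign turned with the exon control shift removed, to -0.16. Between 12.6% and 32.9% of the intron controls read lower than these genes on the same array, so that both were in the dim part of the range.

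**Figure D2:**
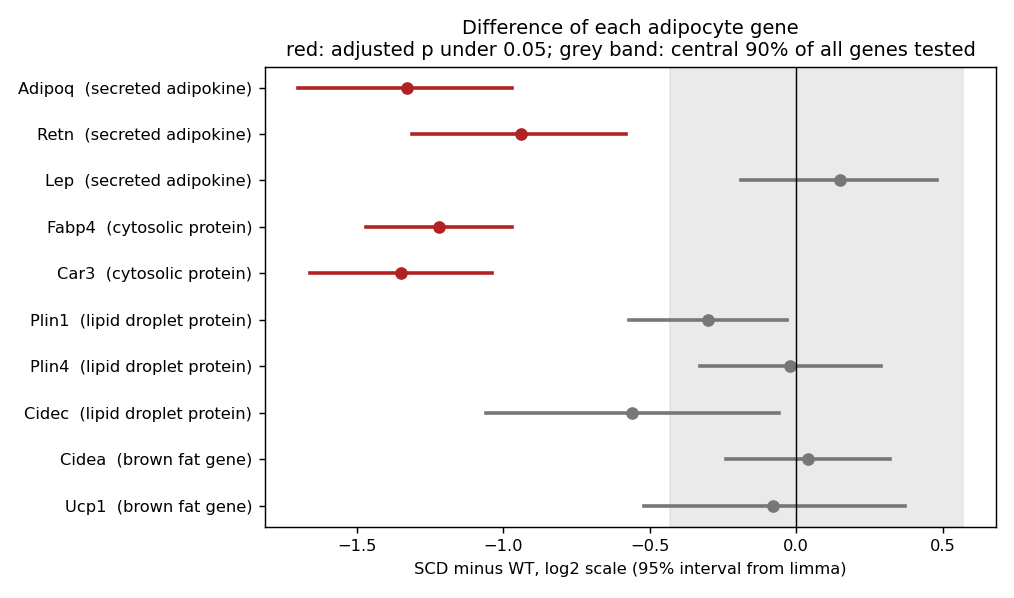
The difference SCD minus WT on the log2 scale is plotted for each of the 10 genes with its 95% interval from limma, red where the adjusted p was under 0.05. The intervals of Adipoq, Retn, Fabp4 and Car3 lie wholly below the grey band that holds the central 90% of all genes (-0.43 to 0.57), and those of Lep, Plin4, Cidea and Ucp1 span 0.

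Set side by side, the 8 white or shared fat genes had a median difference of -0.75, with 4 that fell and 4 that did not pass, and the 2 brown fat genes had a median of -0.02. The 95% intervals of the 4 genes that fell had upper ends from -1.04 to -0.58, and those of Ucp1 and Cidea had lower ends of -0.52 and -0.24. These 4 were set apart because they fell, and the intervals of the other 4 white or shared genes overlapped both brown ones. They ran from -0.19 to 0.48 for Lep, -0.33 to 0.29 for Plin4, -0.57 to -0.03 for Plin1 and -1.06 to -0.06 for Cidec. The difference between white and brown fat genes itself was not tested. It runs along with brightness, because the 4 genes that fell were above the intron control median on all 4 arrays and both brown fat genes were below it on all 4. Among the 8, Cidec was the other gene above that median on every array, and Lep, Plin1 and Plin4 were below it on every array. Of the genes that define fat cells, Adipoq thus lay above the intron control median in both groups, with 69.7% and 70.2% of these controls below it on the SCD arrays, whereas Plin1 lay under that median in both.

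Fewer of these calls passed with an array left out, in fits where the lone array of a group is assumed to vary like the 2 of the other group. Without SCD replicate 1 or SCD replicate 2, limma called 0 of the 10 genes and 0 of all genes, with 4 of the 10 at an unadjusted p under 0.05 both times, and with 3306 and 3270 of all genes; the adjusted p of Adipoq was then 0.149 and 0.155, that of Fabp4 0.1 and 0.115, that of Car3 0.0827 and 0.109, and that of Retn 0.229 and 0.276. Without WT replicate 1, Adipoq and Fabp4 passed in limma, and Car3 and Retn had adjusted p-values of 0.051 and 0.0551. Without WT replicate 2, Retn had a limma adjusted p of 0.0767 and the other 3 passed. The differences themselves stayed negative, from -1.16 to -1.53 for Adipoq, from -1.17 to -1.42 for Fabp4, from -1.23 to -1.55 for Car3 and from -0.79 to -1.14 for Retn over all 15 alternative settings.

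**Figure D3:**
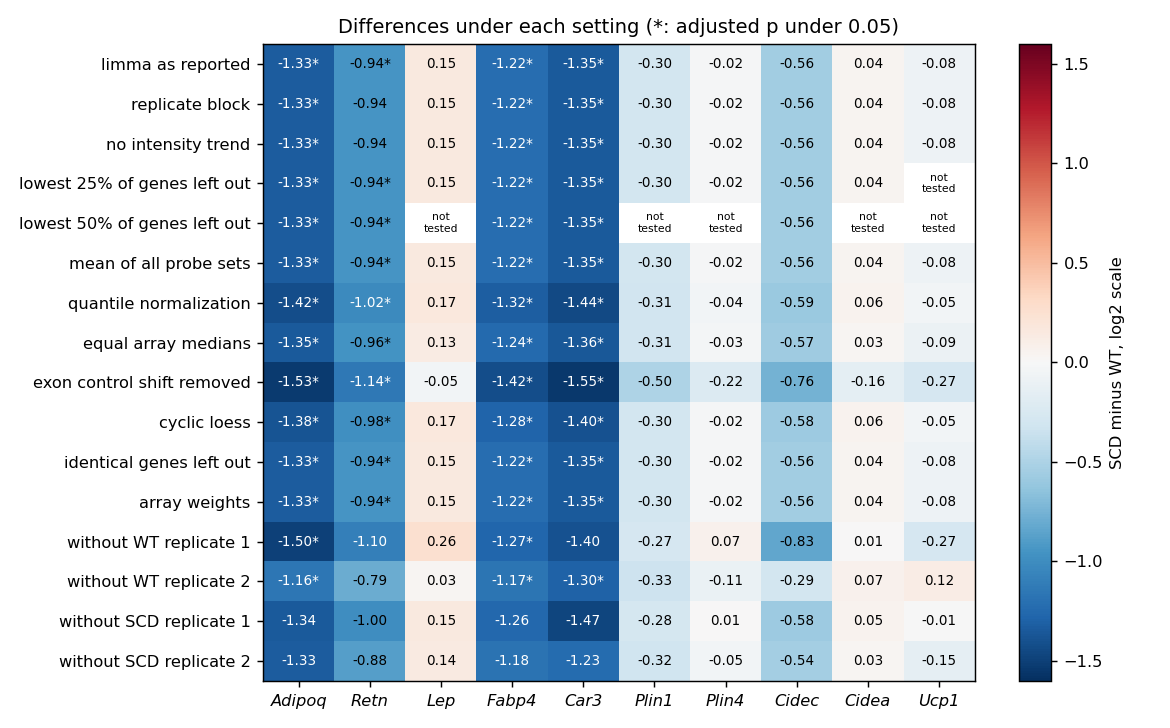
The difference SCD minus WT on the log2 scale is given for each of the 10 genes under the limma fit as reported and 15 alternatives, with a star where the adjusted p was under 0.05. Adipoq, Retn, Fabp4 and Car3 are negative in every row, while all 4 lose their stars without either SCD array, and Retn loses its star in 6 rows in all.

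The genes also varied within the WT group. WT replicate 2 read above WT replicate 1 by 0.34 for Adipoq, 0.31 for Retn and 0.53 for Cidec, against a median gap of 0.16 over all genes. For Fabp4 and Car3 the same gap was 0.10 each. Ucp1 was higher on WT replicate 2 by 0.39, whereas Lep, Plin1 and Plin4 were lower there, by up to 0.23 in size. Among further fat genes, chosen after their values were seen, Thrsp was 0.55 higher, Dgat2 0.54 higher and Lipe 0.51 higher on WT replicate 2, whereas Adig, Aqp7, Plin5 and Pck1 had gaps the other way, of -0.40, -0.28, -0.26 and -0.25. Of 25 further white fat genes, 15 were higher on that array, as were 49.1% of all genes. On the SCD arrays the gaps of Adipoq, Retn and Cidec were -0.01, -0.12 and -0.03.

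Of 25 further white and pan-adipocyte genes, limma called 0, against 3.10% of all genes, and their median difference was -0.10. An unadjusted p under 0.05 was reached by 6, of which 4 were lower and 2 higher, and by 16.7% of all genes tested, with 6.07% lower and 10.6% higher. Lpl, the lipoprotein lipase that frees fatty acids from circulating lipoproteins, read 10.19 and 10.07 in WT and 9.64 and 9.59 in SCD (a difference of -0.51, adjusted p of 0.0664 in limma). Thrsp, a lipogenic gene, had a difference of -0.68, Pck1, the enzyme that makes glycerol backbones in fat, one of -0.55, and the transcription factor gene Cebpa one of -0.25. Rbp4, the retinol carrier, had a difference of 0.56 (limma adjusted p of 0.0766) and Fam13a one of 0.30. Pparg, the master transcription factor gene of fat cells, and Lipe, the hormone-sensitive lipase gene, both chosen after their values were seen, had differences of 0.38 ± 0.16 and 0.00 in limma (adjusted p of 0.336 and 1.0). Lpl, Cebpa and Pparg are also expressed by lung cells outside fat. Adig, Slc2a4, Pck1, Aqp7, Plin5, Lgals12, Agt and Acvr1c were below the intron control median on all 4 arrays. Cfd, Acsl1 and Adrb3 were not analysed here.

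Among 23 further brown and beige fat genes, 2 rose and 1 fell, and 20 did not pass. Over all genes tested, 2.47% rose and 0.635% fell. The median difference of the 23 was 0.07. Pdk4, a kinase that turns mitochondria from glucose to fatty acids, rose by 1.02, from 9.89 and 10.02 to 10.79 and 11.16 (limma adjusted p of 0.0369). Cox8b, a subunit of cytochrome oxidase in brown fat, heart and muscle, rose from 8.03 and 8.26 to 8.89 and 9.06, by 0.83 (limma adjusted p of 0.0442), but not after quantile normalization or with equal array medians. Both increases missed the threshold with the exon control shift removed. Pank1, which starts coenzyme A synthesis, fell by 0.64, with 7.68 and 7.65 in WT and 7.02 on both SCD arrays (limma adjusted p of 0.0436). Fabp3, the heart fatty acid binding protein, had a difference of 0.59 (limma adjusted p of 0.083), Slc27a2 one of 0.37 and Elovl6 one of -0.40. Without the intensity trend, limma called 0 of the 23 and 648 of all 30702 genes. An unadjusted p under 0.05 was then reached by 6 of the 23 and by 4958 of all genes. The calls of Pdk4, Cox8b and Pank1 were also lost with any array left out, as were all calls of the series without either SCD array. Along with the increases, 9 heart muscle genes had a summed level, on the linear scale, of 15012 and 14048 in WT and 26330 and 27884 in SCD. Of these, Nppa, atrial natriuretic peptide, rose by 2.88 and Myl7, an atrial myosin light chain, by 1.20. The other 7 did not pass, with Myl4 at 0.43 and Myh6, Myl3 and Ryr2 at 0.13, 0.06 and 0.03. None was below the intron control median on all arrays. The bright genes Myl7, from 12.78 and 12.94 to 13.97 and 14.15, and Tnnt2 (0.44, not passed) add most to the sum. The part of the heart muscle genes in the values of Cox8b, Fabp3 and Pdk4 was not tested. Gk was not analysed here.

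Some fatty-acid handling genes that lung cells use outside fat fell. Of 16, 6 fell, 0 rose and 10 did not pass, with a median of -0.09. Of all genes tested, 0.635% fell and 2.47% rose. Gpihbp1, which anchors lipoprotein lipase on capillaries, fell by 1.56 (2.95-fold lower), from 13.55 and 13.39 to 11.88 and 11.93 (limma adjusted p of 0.0051). Fabp1, a fatty acid binding protein known from liver and alveolar macrophages, fell by 1.96, from 10.06 and 10.31 to 8.26 and 8.17 (limma adjusted p of 0.00635). Hilpda, an inhibitor of triglyceride lipase, fell by 1.09, the fatty acid uptake receptor gene Cd36 by 0.66, and Acaca and Acly, enzymes of fatty acid synthesis, by 0.66 each (limma adjusted p-values of 0.0116, 0.0078, 0.047 and 0.042). The fatty acid synthase gene Fasn and the droplet coat gene Plin2, chosen after their values were seen, had differences of 0.11 and 0.25. Without the intensity trend, limma called 3 of the 16 and 648 of all 30702 genes. An unadjusted p under 0.05 was then reached by 6 of the 16 and by 4958 of all genes. Fewer of the 6 calls held with an array left out, and all calls of the series were lost without either SCD array.

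**Figure D4:**
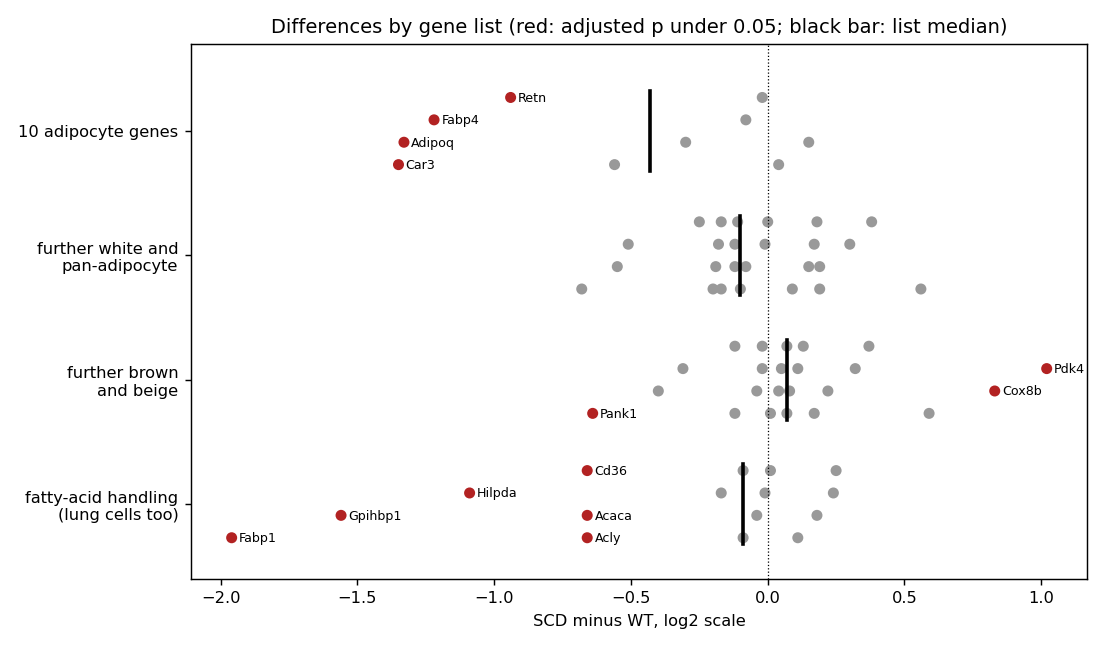
Each point is the difference SCD minus WT of a gene on the log2 scale, in the 10 adipocyte genes and 3 further lists, red and named where the limma adjusted p was under 0.05, with the list median as a black bar. The medians are -0.43 for the 10 genes, -0.10 for 25 further white fat genes, 0.07 for 23 further brown fat genes and -0.09 for 16 fatty-acid handling genes.

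Markers of other cells that express some of the 10 genes also differed. For the lists that follow, 0.635% of all genes tested fell and 2.47% rose. In the list of capillary and pan-endothelial cells, 7 of 11 genes fell, 1 rose and 3 did not pass. The summed level of the list was 180160 and 186809 in WT and 115183 and 119430 in SCD, or 0.639 times the WT mean. The bright genes Cd36 and Cdh5 add most to it, and no marker was below the intron control median on all arrays. Tek, Kit and Ptprb fell, with differences of -1.94, -2.18 and -1.82, and Cdh5, the cadherin of all endothelial cells, named after its value was seen, fell by 0.47. Car4, a carbonic anhydrase of lung capillaries, rose by 1.18. Cldn5 and Pecam1, endothelial junction genes named after their values were seen, had differences of 0.65 and 0.24 and did not pass (limma adjusted p of 0.136 and 0.319). The median difference of the list was -0.66. The 8 white or shared fat genes had a summed level of 2403 and 2709 in WT and 1226 and 1147 in SCD, or 0.464 times. Fabp4, Car3, Adipoq and Retn, the brightest of the 8, added most to that sum. Lep and Plin4 had differences of 0.15 and -0.02. Whether the endothelial differences have a part in that of Fabp4 was not tested. Alveolar macrophage genes went both ways, with 2 of 10 higher, 2 lower and 6 not passing; Fabp1 and Marco, a scavenger receptor, fell, with differences of -1.96 and -1.48, and Car4 rose by 1.18. Their median difference was 0.03. Their summed level, to which the bright genes Plet1 (1.03, passed), Chil3 (0.39, not passed) and Car4 add most, was 30850 and 36170 in WT and 54093 and 56871 in SCD, with Krt79 the only marker of the list below the intron control median on all arrays. Cidec is itself in that list, and Fabp1, Car4, Cd36, Gpihbp1, Lpl and Plin2 each stand in more than a single list.

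Tissues that could lie next to fat on a dissected lung were read in the same way, beside 0.635% of all genes tested that fell and 2.47% that rose. Of 7 mesothelial genes, Upk3b fell by 1.03, from 7.22 and 7.32 to 6.22 and 6.26 (limma adjusted p of 0.0141), and 6 did not pass, with Lrrn4 at -0.67 and Krt19 at 0.52. The mesothelial sum ran from 4450 to 4745 in WT and from 4337 to 4369 in SCD. The bright genes Upk1b (-0.16, not passed) and Gpm6a (-0.07, not passed) add most to it. Of the 7 genes, 6 were lower and 1 higher, and Msln and Wt1 were below the intron control median on all arrays. None of 10 skeletal muscle genes passed in limma, with 0 at an unadjusted p under 0.05, and 9 of them were below the intron control median on all arrays; Myh1 was at -0.26, Tnnt3 at -0.54 and Myh2 at -0.13. Their sum was 427 and 395 in WT and 386 and 392 in SCD. Among 6 thymus genes, Cd3e, which all T cells express, rose by 0.77, while Dntt (-0.37) and Themis (0.22) did not pass, and Rag2, Ptcra, Dntt and Themis were below the intron control median on all arrays. The thymus sum, to which Cd3e and Cd8b1 (0.03, not passed) add most, was 500 and 490 in WT and 639 and 626 in SCD. Of 8 genes of lipofibroblasts and other lung fibroblasts, Col1a1 fell by 0.64 and 7 did not pass, with Lpl at -0.51 and Col1a2 at -0.62. Tcf21 and Plin2, lipofibroblast genes named after their values were seen, had differences of 0.66 and 0.25 and did not pass (limma adjusted p of 0.178 and 0.489). The fibroblast sum ran from 16449 to 19368 in WT and from 14988 to 15015 in SCD, with no gene below the intron control median on all arrays. The part of these tissues in the decrease of the 4 fat genes was not tested.

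**Figure D5:**
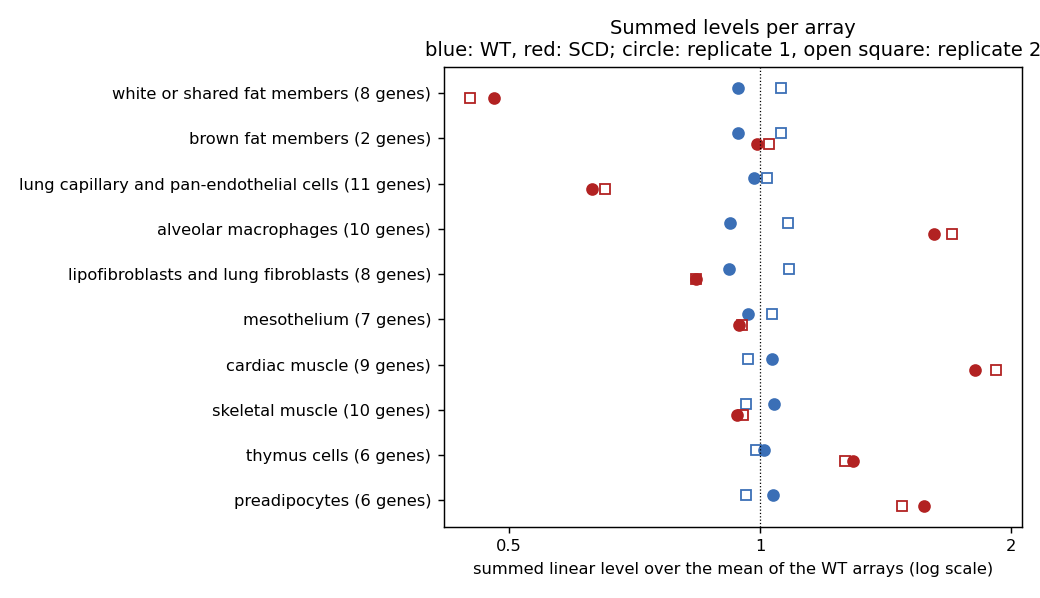
For each list the summed linear level on every array is divided by the mean of the WT arrays and plotted on a log axis, WT in blue and SCD in red. The 8 white or shared fat genes (0.464 times the WT mean) and the endothelial list (0.639 times) lie lower in SCD, the heart muscle list lies higher (1.87 times), and the brown fat genes lie at 0.998 times. Linear sums weigh bright genes most: Fabp4, Car3, Adipoq and Retn add most to the first, Cd36 and Cdh5 to the endothelial sum. Myl7 and Tnnt2 add most to the heart muscle sum.

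The genes most like Adipoq were sought as those with the smallest Euclidean distance between log2 values centred on each gene's mean over the 4 arrays, among 20083 genes without predicted names. These 4 arrays come from only 2 groups, so that any gene that falls by a similar amount comes out as alike. The nearest 5 were Arl15, Bmp6, Stc1, Fabp4 and Abi3bp, at distances of 0.124, 0.151, 0.204, 0.206 and 0.230. Arl15 is a small GTPase gene, and it fell from 10.64 and 10.81 to 9.44 and 9.41. Bmp6 is a growth factor gene of endothelium that induces hepcidin, Stc1 encodes the hormone stanniocalcin 1 and Abi3bp encodes a matrix protein. Bmp6 and Abi3bp fell, 2.72-fold and 2.82-fold lower, and Stc1 had a difference of -1.18 (limma adjusted p of 0.0525). Car3 ranked 8 and Retn 35 by the same distance, Cidec 231 and Plin1 1314, whereas Ucp1 ranked 5153, Plin4 9298, Cidea 10279 and Lep 15029.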

How the data were processed

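Lung RNA from WT and SCD mice was hybridised to Affymetrix arrays, 2 per group. The deposited values are log2 expression values per probe set; the submitters' processing notes name RMA, Partek and Affymetrix Expression Console, with versions, roles and genome build not given in the sources used here. The log2 scale was read from the values, 1.72 to 19.93. The number of arrays limits precision.

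Of 72688 probe sets, 31258 were paired with 1 gene and 1492 with several by the platform annotation, with symbols updated through RefSeq's GRCm38.p6 gene table (30700 of 30702 genes matched). Each gene took its probe set with the highest mean. limma 3.58.1 in R 4.3.3 (lmFit, then eBayes with an intensity trend) compared SCD with WT over all 30702 genes, with Benjamini-Hochberg adjustment and a threshold of 0.05. The code was also run on data simulated with independent noise from the fitted variances. That run cannot show whether the assumptions of limma hold for these arrays. Groups came from the sample titles. Named genes were all members, up to 6 genes with the smallest p of each further list, 3 of each marker list and the 5 nearest to Adipoq; others are said to be chosen after their values were seen. Members and lists were chosen with earlier results of these data known, and give no independent support. The alternatives were the replicate block, no trend, omission of the dimmest 25% or 50% of genes, averaged probe sets, 4 normalizations, omission of 21 genes with identical values, array weights and each array left out.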

Additional observations from a re-analysis of the deposited data

How the results depend on the processing

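Over all genes, limma called 952 genes, 79.5% of them higher in SCD, and 0 to 786 with an array left out (0 without either SCD array, 508 without WT replicate 1). The share higher was 64.4% after quantile normalization and 47.8% with the exon control shift (0.196) taken off the SCD arrays, which moved the median of all genes to -0.19. Of the 10 adipocyte genes, 4 were called in limma, and 0 to 3 with an array left out; relative to the shifted median the 4 decreases kept their size, since the shift is the same for every gene. Every setting with all 4 arrays called Adipoq, Fabp4 and Car3. With the replicate block, Retn had a limma adjusted p of 0.0534 and 973 genes were called. WT and SCD arrays of the same number did not deviate together (correlation of -0.0022 across genes). That value cannot show whether the numbers pair the samples. Differences of genes that did not pass changed sign for Lep (-0.05) and Cidea (-0.16) with the exon control shift removed, for Plin4 without WT replicate 1 (0.07) and SCD replicate 1 (0.01), with a range of -0.11 to 0.07 over the arrays left out, and for Ucp1 without WT replicate 2 (0.12), with a range of -0.27 to 0.12. Of further white fat genes, limma called 0 as reported and 2 with the dimmest 50% of genes left out (Lpl, lower, and Rbp4, higher). It called 1, Lpl, after quantile normalization and with the exon control shift removed. No call was added with any array left out. Of further brown fat genes it called 1 with the exon control shift removed, 0 without the intensity trend and 0 with any array left out, against 3. Of fatty-acid handling genes it called 3 without the trend and 0 to 4 with an array left out, against 6. With all 4 arrays kept, other named calls missed the threshold in limma under 4 of 11 settings for Cox8b (adjusted p of up to 0.0732) and Cd3e (0.0652), 3 for Acaca (0.0737) and Cdh5 (0.142), 2 for Pdk4, Pank1, Acly and Col1a1 (up to 0.0786) and 1 for Cd36 and Dpp4 (0.0566 and 0.0513), the setting without the intensity trend in each case among them. The call of Plet1 was not checked in this way. Filters on dim genes left Ucp1 untested at 25%, and Lep, Plin1, Plin4, Cidea and Ucp1 at 50%. Of the 10 genes, 5 were below the intron control median on all arrays, which limits what their values can show. Values under that median were common, as only 11723 of all 30702 genes tested were above it on all arrays.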

Other observations

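Genes of fat cell precursors were read beside the fat genes and went both ways. Of 6, Cd34, a marker of stromal progenitors and of endothelium, rose by 1.11, from 11.30 and 10.99 in WT to 12.33 and 12.17 in SCD (limma adjusted p of 0.022). Dpp4, a peptidase of interstitial progenitors that other lung cells also carry, fell by 0.91, from 10.28 and 10.50 to 9.40 and 9.56 (limma adjusted p of 0.0288). Icam1, an adhesion molecule gene, had a difference of 0.69 (limma adjusted p of 0.0575). Of all genes tested, 2.47% rose and 0.635% fell. The median difference of the 6 was 0.0. Their summed level, to which the bright Cd34 adds most, was 4325 and 4015 in WT and 6558 and 6175 in SCD, and Dlk1 and Pi16 were below the intron control median on all arrays.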
